A study of Mus musculus with 2148 samples.

Results

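The 8 chemokine genes of the thymic medulla, Ccl21a, Ccl19, Ccl17, Ccl22, Ccl20, Ccl11, Xcl1 and Cxcl10, were followed through single-cell RamDA-seq libraries of mouse thymic epithelial cells (TECs). RamDA-seq is a plate-based method that sequences full-length total RNA from one sorted cell per well. The 8 genes were found by symbol among the 48437 genes of the count table, each through its Ensembl identifier, and all 8 had reads. The table held about 2000 cells in 8 groups, all from C57BL/6 mice; cell numbers of 100 or more are rounded to the nearest 10 below.

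The sorts, each depleted of CD45+ cells and stained for EpCAM, Ly51 and MHC class II, were medullary cells with high MHC class II (mTEChi), medullary cells with low MHC class II (mTEClo) and Ly51+ cortical cells (cTEC). Adult WT mTEChi came from about 440 cells of 4-week males, 12 cells of 5-week males, 82 cells of 6-week males and 82 cells of 4-week females, called pools 1 to 4 here. Adult WT mTEClo came from about 220 cells of 8-week males, 74 cells of 5-week males and 66 cells of 4-week males, called pools 1 to 3. The adult AireKO cells, from mice deficient in Aire, were about 340 mTEChi and 150 mTEClo cells, all from 5-week males. The newborn (neonate, 1 day old) WT cells were about 170 mTEChi, 120 mTEClo and 140 cTEC of unknown sex. The adult WT cTEC were 77 cells of 6-week males. A pool is the cells of 1 group with the same age and sex label. How many mice gave each pool is not stated, and the AireKO, newborn and cTEC groups had 1 pool each.

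Chemokines are small secreted proteins that steer migrating cells through G protein-coupled receptors. In the thymus, medullary epithelial cells draw developing thymocytes from the cortex towards the medulla and hold dendritic cells and regulatory T cells there. CCL21 and CCL19 bind CCR7, the receptor that positively selected thymocytes switch on, and CCL17 and CCL22 bind CCR4. CCL20 binds CCR6, XCL1 binds XCR1 on cross-presenting dendritic cells, CCL11 (eotaxin) binds CCR3, and CXCL10 is an interferon-inducible ligand of CXCR3. Aire is a nuclear protein of mTEChi that turns on many tissue-restricted genes.

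Levels are given as counts per 1000000 reads (CPM), summed over a pool, shares are of cells with at least 5 reads of the gene, and intervals on shares are exact 95% binomial intervals that cover counting error only. The cells held 203010 to 1823784 reads each (median 692880), and the pools 7990398 to 351545799 reads. Aire stood between 1109.7 and 1844.6 CPM in the 4 adult WT mTEChi pools and at 26.1 CPM in the AireKO mTEChi pool. Cd80, a marker of mature mTEC, averaged 240.4 CPM in adult WT mTEChi and 22.8 CPM in mTEClo. Psmb11, a cTEC proteasome gene, stood at 732.4 and 915.6 CPM in the cTEC pools and at 283.7 CPM in newborn mTEClo, above the 0.667 to 14.1 CPM of the adult WT mTEClo pools. Cells with at least 3 of 6 tuft cell markers made up 12.9%, 95.9% and 59.1% of adult WT mTEClo pools 1 to 3 and 21.4% of AireKO mTEClo, so these pools differ in makeup. With reads summed over a pool, fewer cells of a kind and less RNA per cell cannot be told apart, and each level is therefore set beside its share of cells.

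Ccl22 (ENSMUSG00000031779, chr8:94745590-94751699, plus strand) and Ccl17 (ENSMUSG00000031780, chr8:94810453-94812036, plus strand) lie near each other on 1 chromosome and encode ligands of the same receptor. Cxcl10 (ENSMUSG00000034855, chr5:92346638-92348889, minus strand) shares 5.91% of its exon bases with Art3. The promoter windows of these genes and of Ccl21a are shown because these 4 genes separated the mTEC sorts below. Each window runs from 250 bases before to 50 bases after the RefSeq start of the gene, 5′ to 3′ on its own strand, in build GRCm38.p6. The windows are chr8:94745434-94745733 (Ccl22, plus strand), chr8:94810203-94810502 (Ccl17, plus strand), chr5:92348840-92349139 (Cxcl10, minus strand) and chr4:42773942-42774241 (Ccl21a, minus strand). Capitals mark matches to the NF-kB consensus or to the interferon-stimulated response element (GAAA, any 2 bases, GAAA), both searched on both strands.
Ccl22: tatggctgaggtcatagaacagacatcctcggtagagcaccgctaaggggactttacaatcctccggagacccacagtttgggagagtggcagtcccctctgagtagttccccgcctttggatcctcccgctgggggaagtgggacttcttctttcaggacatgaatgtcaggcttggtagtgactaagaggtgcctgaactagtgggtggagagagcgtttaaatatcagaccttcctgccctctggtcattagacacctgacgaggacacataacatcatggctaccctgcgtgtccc
Ccl17: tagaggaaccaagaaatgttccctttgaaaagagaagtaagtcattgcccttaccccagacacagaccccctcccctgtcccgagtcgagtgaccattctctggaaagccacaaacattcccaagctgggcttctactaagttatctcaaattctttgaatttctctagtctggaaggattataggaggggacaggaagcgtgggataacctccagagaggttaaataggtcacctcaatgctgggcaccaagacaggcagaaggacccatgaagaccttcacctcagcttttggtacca
Cxcl10: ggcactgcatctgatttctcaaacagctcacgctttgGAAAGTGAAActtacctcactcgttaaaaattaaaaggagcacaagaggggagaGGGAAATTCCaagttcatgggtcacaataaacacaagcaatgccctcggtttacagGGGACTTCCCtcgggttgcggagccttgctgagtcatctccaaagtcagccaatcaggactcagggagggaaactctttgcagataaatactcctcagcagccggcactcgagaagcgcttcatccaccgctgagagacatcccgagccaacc
Ccl21a: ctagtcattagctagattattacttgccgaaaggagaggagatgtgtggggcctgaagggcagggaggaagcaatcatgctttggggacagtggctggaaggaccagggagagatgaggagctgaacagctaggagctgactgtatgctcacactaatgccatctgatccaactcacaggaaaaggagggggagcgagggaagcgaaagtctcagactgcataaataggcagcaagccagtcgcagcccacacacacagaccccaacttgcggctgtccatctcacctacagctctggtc
Of the 7 members with a RefSeq promoter entry (all but Ccl11), 2 held an NF-kB match, Cxcl10 with 2 sites and Ccl20 with 1, and 2 held the interferon element, Cxcl10 and Ccl19. Among all 32851 promoter windows of the same length, 4.51% held the NF-kB consensus and 3.44% the interferon element. The Ccl22, Ccl17, Ccl21a and Xcl1 windows held neither set of letters.

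Ccl21a (ENSMUSG00000094686, chr4:42772860-42773993, minus strand) has near-identical copies on the same chromosome. Of its windows of 50 transcript bases, 71.6% also occurred in Ccl21b, Gm10591, Gm13304 or Gm21541. Over the coding bases, each of the 4 copies differed from Ccl21a at 2 positions, T84A and C194T, where the Ccl21a base is written first and positions count from the first base of the start codon. The differing bases are in capitals in these stretches, which are shown because most reads of a copy cannot be told from reads of Ccl21a.
Ccl21a around T84A: tgatggagggggTcaggactgctgc
the 4 copies: tgatggagggggAcaggactgctgc
Ccl21a around C194T: caatcctgttctCaccccggaagca
the 4 copies: caatcctgttctTaccccggaagca
Of the copies, Gm10591 had 44 reads over all cells, against 30791 for Ccl21a. The other copies were not found by symbol in the count table, so their reads could not be looked up. The authors removed reads with a mapping quality under 5, so reads that fit a copy equally well may be missing, and Ccl21a levels are uncertain for this reason.

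Ccl19 (ENSMUSG00000071005, chr4:42754525-42756577, minus strand) could not be followed. It had 16 reads in 16 cells, and no cell held 5. Of its 50-base windows, 51.97% also occurred in Ccl19-ps1, Ccl19-ps3, Gm12407 or Gm2564. The copy Gm12407 had 8619 reads and averaged 9.30 CPM in adult WT mTEChi and 2.32 CPM in mTEClo. How reads were divided between Ccl19 and its copies was not tested, and Ccl19 is left out of the accounts of levels below.

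The first comparison asked which chemokine genes mark mTEChi and which mark mTEClo in adult WT mice, with the reads of 4 and 3 pools. No adult experimental batch held both sorts, so batch and sort cannot be told apart in it. The largest pool of each sort also differed in age, at 4 weeks in mTEChi and 8 weeks in mTEClo. Of the 8 genes, 3 were higher in mTEChi (Ccl22, Ccl17 and Cxcl10) and 1 was lower (Ccl21a) by edgeR's quasi-likelihood test. A gene was called where the Benjamini-Hochberg adjusted p was below 0.05 and the change at least 2-fold. By the same rule 11.7% of all 39971 genes tested were called, 7.54% higher and 4.13% lower in mTEChi. The pools of the sorts did not overlap for the same 4 genes, as for 25.9% of all genes. The median log2 fold change was 1.73 over the 8 genes and 0.30 over all genes.

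Ccl22 was the gene with the clearest split. It stood at 88.2, 192.9, 56.7 and 125.6 CPM in mTEChi pools 1 to 4 and at 2.38, 0.650 and 0.596 CPM in mTEClo pools 1 to 3. The group means were 115.8 ± 58.6 CPM (SD, n = 4) and 1.21 ± 1.02 CPM (SD, n = 3). Every mTEChi pool lay far above every mTEClo pool, although 94.5% of the reads of the small pool 2 came from 1 of its 12 cells. The log2 fold change was 6.29 (SE 0.79, adjusted p = 0.0041, edgeR). Ccl22 was called in all 18 alternative fits.

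Ccl17 was also higher in mTEChi, at a lower level than Ccl22, and its mTEChi pools ranked in the reverse order. It stood at 6.28, 0.375, 12.3 and 3.09 CPM in mTEChi pools 1 to 4 and at 0.169, 0.100 and 0.213 CPM in mTEClo pools 1 to 3. The pools did not overlap, but the lowest mTEChi value rested on 3 reads. The log2 fold change was 4.89 (SE 1.15, adjusted p = 0.0313, edgeR), and the call was made in 9 of 18 alternative fits, with adjusted p up to 0.278. Leaving out any 1 of mTEChi pools 1, 3 and 4 or of mTEClo pools 1, 2 and 3 took Ccl17 over the threshold (adjusted p 0.0567 to 0.105, edgeR), with log2 fold changes of 4.22 to 5.08.

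Cxcl10 was the most abundant of the genes per length of transcript in mTEChi. It stood at 303.3, 627.9, 350.4 and 448.7 CPM in mTEChi pools 1 to 4 and at 115.4, 51.1 and 20.2 CPM in mTEClo pools 1 to 3, so that the lowest mTEChi pool was above the highest mTEClo pool. The log2 fold change was 2.54 (SE 0.60, adjusted p = 0.0321, edgeR). Cxcl10 was called in 14 of 18 alternative fits, and not without mTEChi pool 1 (adjusted p = 0.0516), mTEChi pool 4 (0.0672) or mTEClo pool 2 (0.107), nor without the tuft marker cells, where the log2 fold change was 1.64 (0.114).

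Ccl21a went the other way. It stood at 107.7, 22.1 and 26.2 CPM in mTEClo pools 1 to 3 and at 6.79, 1.25, 5.52 and 4.20 CPM in mTEChi pools 1 to 4. All mTEClo pools were above all mTEChi pools, and the 8-week mTEClo pool stood apart from the younger, tuft-rich pools. The log2 fold change of mTEChi against mTEClo was -3.80 (SE 0.75, adjusted p = 0.0178, edgeR), and Ccl21a was called in 16 of 18 alternative fits. Without mTEChi pool 4 its adjusted p was 0.0522. With age and sex of the pool as a block, the log2 fold change was -3.02 (adjusted p = 0.0968, edgeR).

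Ccl11, Ccl20 and Xcl1 did not pass the test. Ccl11 (ENSMUSG00000020676, chr11:82057823-82062955, plus strand) stood at 174.4, 35.05 and 7.48 CPM in mTEClo pools 1 to 3 and at 15.1, 63.6, 4.45 and 0.453 CPM in mTEChi pools 1 to 4. Its pools overlapped, and 99.2% of the reads of mTEChi pool 2 came from 1 cell. The log2 fold change of mTEChi against mTEClo was -2.12 (95% interval -5.38 to 1.13, adjusted p = 0.311, edgeR).

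Ccl20 (ENSMUSG00000026166, chr1:83116766-83119167, plus strand) stood at 76.8, 1.502, 61.2 and 44.4 CPM in mTEChi pools 1 to 4 and at 11.6, 38.4 and 14.9 CPM in mTEClo pools 1 to 3. Only the small pool 2 of mTEChi fell below the mTEClo range, and 3 of 4 mTEChi pools lay above it. In mTEClo pools 1 to 3, 1 cell held 39.7%, 42.4% and 55.7% of the Ccl20 reads, and 8.40% of mTEClo cells held the gene against 38.5% of mTEChi cells. The log2 fold change was 0.93 (95% interval -1.24 to 3.10, adjusted p = 0.51, edgeR).

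Xcl1 (ENSMUSG00000026573, chr1:164931644-164935527, minus strand) had 1, 1 and 0 reads in mTEClo pools 1 to 3, at or under the floor of 3 reads in each. In mTEChi pools 1 to 4 it stood at 3.56, 0, 10.7 and 0.103 CPM, the last from 5 reads. Pools 1 and 3 were high, and pools 2 and 4 were near the mTEClo level. The adjusted p was 0.0501 (edgeR), just over the threshold, 0.0263 without the small mTEChi pool 2 and 0.000161 with DESeq2. DESeq2 called 5 of the 8 genes, against 24.9% of all genes, and edgeR on experimental batches called 6 of 7, against 35% of all genes. How the batches of a pool relate to its mice is not stated, so p-values over batches may measure technical spread and may be too small.

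**Figure D1:**
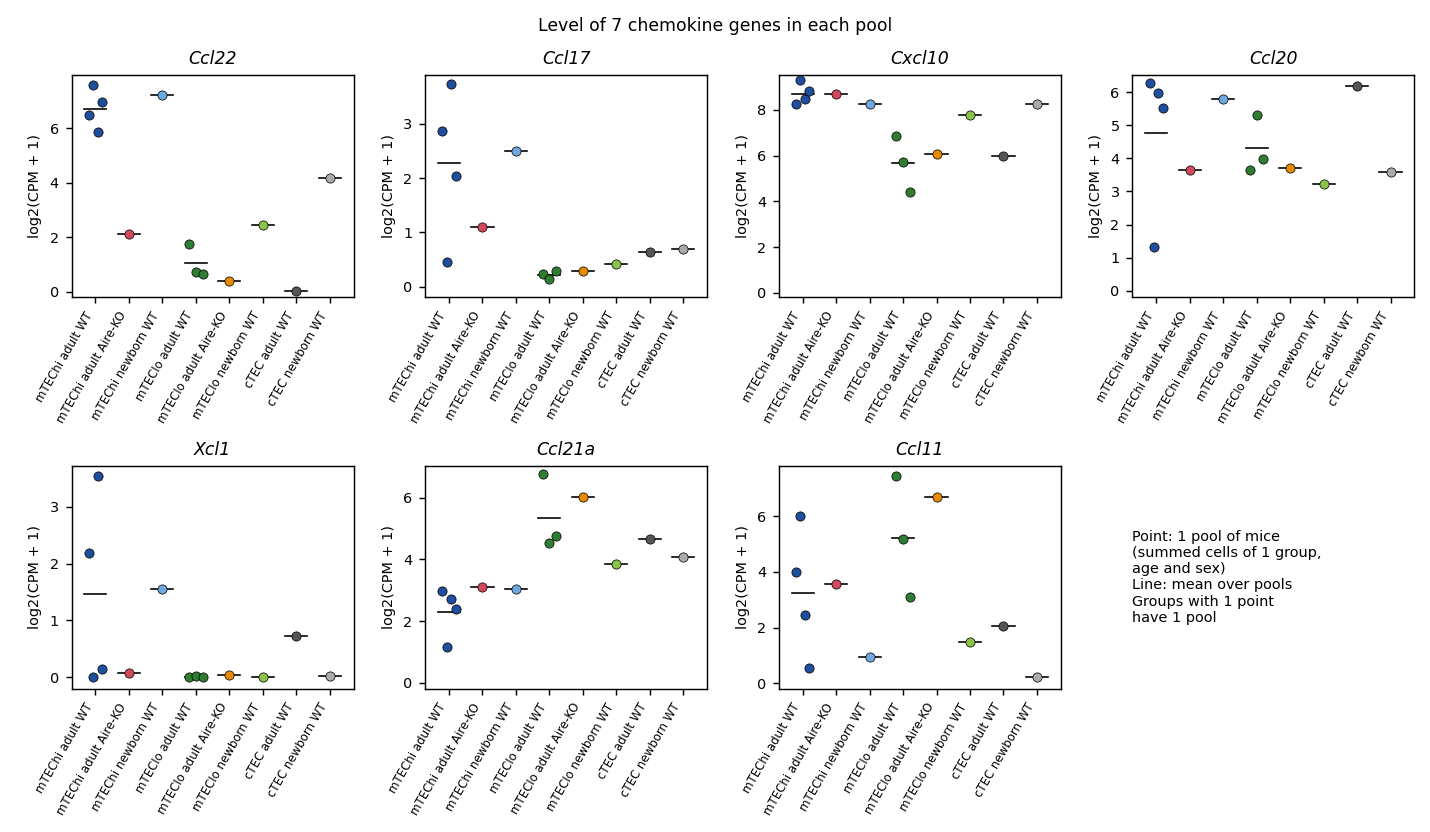
Level of 7 chemokine genes as log2(CPM + 1), with 1 point per pool and the 8 groups along the horizontal axis. Ccl22 lies between 56.7 and 192.9 CPM in the adult WT mTEChi pools and at 3.37 CPM in the AireKO mTEChi pool, and Ccl21a lies between 22.1 and 107.7 CPM in the adult WT mTEClo pools.

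Per kilobase of exon, the mean level in adult WT mTEChi ran from Cxcl10 (192.1 CPM per kb, pools 134.7 to 278.8) through Ccl22 (49.8, pools 24.4 to 82.9), Ccl20 (32.4, pools 1.06 to 54.1), Ccl11 (19.3, pools 0.419 to 58.8), Ccl17 (10.7, pools 0.73 to 23.8) and Xcl1 (6.84, pools 0 to 20.4) to Ccl21a (5.11, pools 1.44 to 7.81). The pools of each neighbouring pair overlapped in this order, except for Cxcl10 and Ccl22. In adult WT mTEClo the order of the mean CPM per kb was Ccl11 (66.8, pools 6.91 to 161.1), Ccl21a (59.8, pools 25.4 to 123.8), Cxcl10 (27.6, pools 8.95 to 51.2), Ccl20 (15.2, pools 8.14 to 27.01), Ccl22 (0.52, pools 0.257 to 1.03) and Ccl17 (0.31, pools 0.195 to 0.414). Here every neighbouring pair overlapped except Ccl20 and Ccl22. Reads that fit a copy of Ccl21a equally well may be missing, so the place of Ccl21a in both orders is uncertain.

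The same genes differed in how many cells carried them. Cxcl10 was held by 90.8% of adult WT mTEChi cells (95% interval 88.3 to 92.96), Ccl20 by 38.5% (34.7 to 42.5), Ccl22 by 33.1% (29.4 to 36.9), Ccl17 by 15.5% (12.7 to 18.6) and Xcl1 by 2.58% (1.48 to 4.16). The reads were concentrated further. In these 620 cells 50% of the Ccl22 reads came from 14 cells, of the Ccl20 reads from 21, of the Ccl17 reads from 10 and of the Xcl1 reads from 4, whereas it took 97 cells for Cxcl10. One adult WT mTEChi cell reached 4192 CPM of Ccl22, against a median of 36.6 CPM over the cells that held the gene. Among the 96 cells holding Ccl17, 56.3% also held Ccl22, against 28.8% of the other cells. Spearman's rho between the CPM of Ccl17 and Ccl22 over the 620 cells was 0.23, and 0.13 to 0.39 in the 8 experimental batches that could be asked. These cells come from 4 pools, so the correlation is a description.

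**Figure D2:**
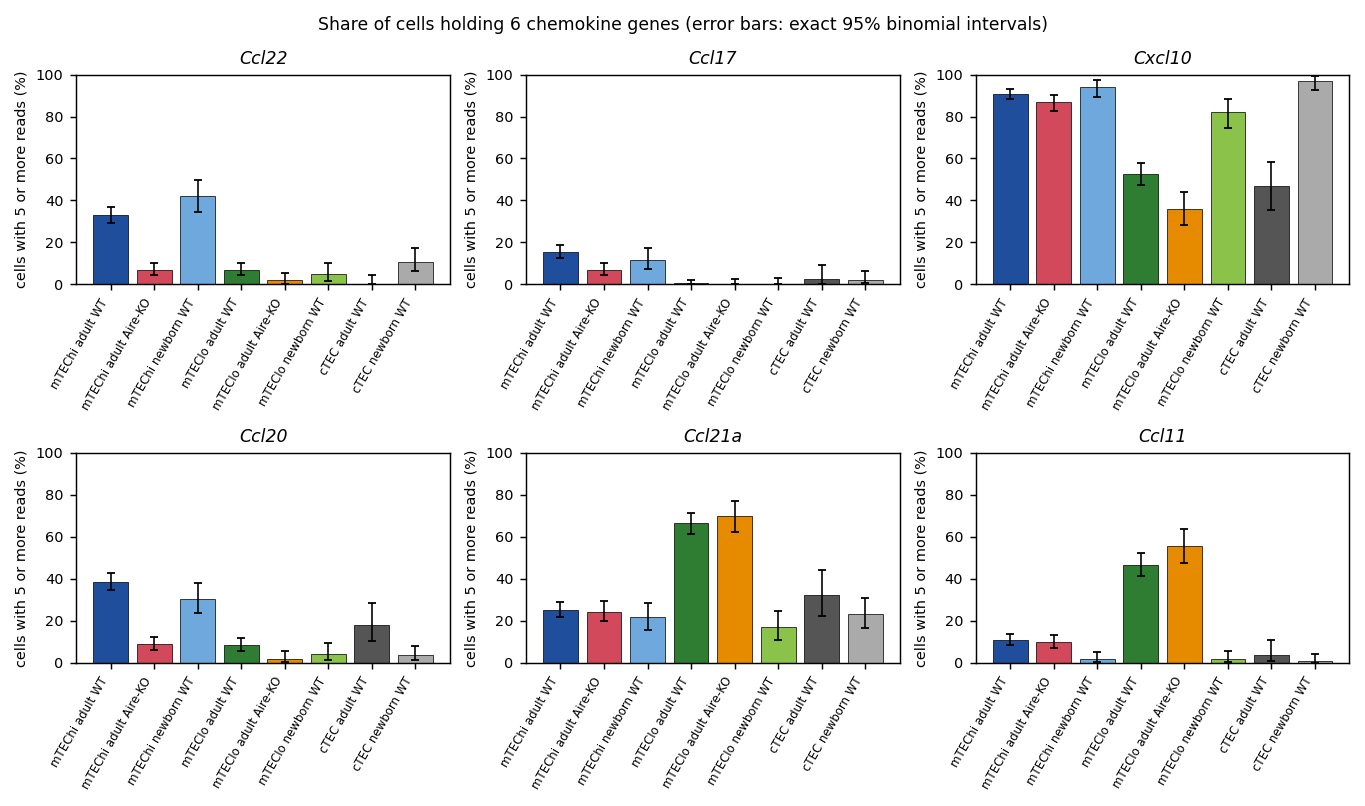
Share of cells with 5 or more reads of 6 chemokine genes in each group, in percent, with exact 95% binomial intervals as error bars. Ccl22 is held by 33.1% of adult WT and 7.10% of AireKO mTEChi cells, and Ccl21a by 66.4% of adult WT mTEClo cells.

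Most mTEClo cells with Ccl11 also carried Ccl21a. In adult WT mTEClo, 66.4% of the cells held Ccl21a and 46.8% held Ccl11. Of the cells holding Ccl11, 160 (95.8%) held Ccl21a, against 40.5% of the cells without Ccl11. In WT pools 1 to 3, Ccl11 was held by 69.6%, 16.2% and 6.06% of the cells and Ccl21a by 91.2%, 27.03% and 28.8%. Most WT cells with Ccl11 came from pool 1, so these WT shares partly compare pools. In AireKO mTEClo 85 of 86 Ccl11 cells held Ccl21a, against 33.8% of the others. Spearman's rho was 0.69 over the 360 adult WT cells, 0.37 to 0.57 in the 4 batches with enough Ccl11 cells, and 0.57 over the 150 AireKO cells. Part of the pooled value in WT thus lay between pools.

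Cells with Ccl21a more often carried Krt14 and Ly6a, listed as markers of immature mTEC. Itgb4, the other gene of that list, is not reported here. Krt14, a basal keratin, was held by 96.6% of the Ccl21a cells of adult WT mTEClo and by 30.8% of the others, and Ly6a (Sca-1) by 88.2% and 27.5%. At least 3 tuft cell markers were found in 19.4% of the Ccl21a cells and in 76.7% of the others, Ptprc (CD45) in 4.22% and 36.7%, and any of 5 endothelial markers in 15.6% and 78.3%. All these shares are over the cells of pools 1 to 3 together. Most Ccl21a cells came from pool 1, so the shares partly compare pools. Within pool 1, Ccl21a was held by 89.3% of the tuft marker cells and by 91.5% of the rest. The values were 25.4% and 66.7% (3 cells) in pool 2 and 7.69% and 59.3% in pool 3. Of the endothelial markers, Cdh5 and Kdr were at 0 in mTEClo pool 2 and Cdh5 in pool 3, so cells with such a marker are not named as endothelial. The part of cells with tuft, Ptprc or endothelial markers in the difference between pools was not tested. The median depth was 566027 reads in cells with Ccl21a and 635467 in the others. Of the cells in mTEClo pools 1 to 3, 91.2%, 27.03% and 28.8% held Ccl21a, whereas the tuft marker cells were 12.9%, 95.9% and 59.1%. Without the tuft marker cells, Ccl21a stood at 111.4, 61.02 (3 cells) and 52.2 CPM in pools 1 to 3 and at 79.9 CPM in AireKO mTEClo. Ccl21a remained lower in mTEChi in a fit without the tuft marker cells, which called 2 of the 8 genes, Ccl22 and Ccl21a.

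**Figure D3:**
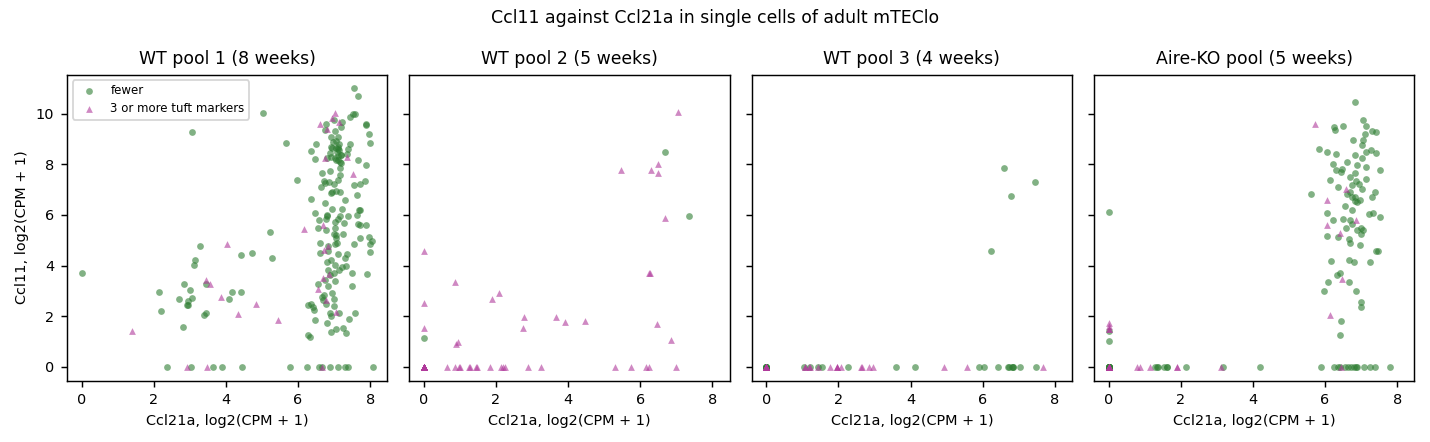
Ccl11 (vertical) against Ccl21a (horizontal) in single adult mTEClo cells, both as log2(CPM + 1), with 1 point per cell, 1 panel per pool and triangles for cells with 3 or more tuft markers. Most cells with Ccl11 also hold Ccl21a: 95.8% in adult WT and 98.8% in AireKO. Most of the WT cells with Ccl11 are from pool 1, where 91.2% of all cells hold Ccl21a.

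Of 6 dendritic or macrophage markers (Itgax, Itgam, Flt3, Cd209a, Csf1r and Zbtb46), the sum was 181.4 to 412.9 CPM in the adult WT mTEChi pools and 52.1 to 59.95 CPM in the mTEClo pools. Most of it was Zbtb46 (mean 130.3 and 45.1 CPM) and Csf1r (89.5 and 4.94 CPM), while Cd209a averaged 0.799 CPM in mTEChi. None of the 6 was at 0 in an adult WT mTEChi pool. In mTEClo, Itgax was at 0 in pools 2 and 3, Cd209a in pool 2 and Flt3 in pool 3. The sum in AireKO mTEChi was 188.6 CPM, within the range of the WT pools, while Ccl22 was below it. The part of these markers in the levels of Ccl22 and Ccl17 was not tested.

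The second comparison asked which chemokine genes differed in mice without functional Aire. The AireKO mTEChi pool was set against the 4 adult WT mTEChi pools, with the lone pool assumed to vary like the other groups. No gene of the 39971 tested was called by edgeR, 0% by this rule, while 4.37% had an unadjusted p under 0.05, Ccl22 being the 1 member among them. DESeq2 called 1.92% of all genes, with Ccl22 as the 1 member, and limma called 9 genes and no member. Of the 8 chemokine genes, 2 lay outside the range of the WT pools, Ccl22 below and Ccl21a above it, and 34% of all genes lay outside.

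Ccl22 stood at 3.37 CPM in AireKO mTEChi, against 56.7 to 192.9 CPM in the WT pools given above. The log2 difference was -4.98 (SE 1.23, 95% interval -7.80 to -2.16, unadjusted p = 0.0034, adjusted p = 0.925, edgeR), and it was negative in all 17 alternative fits, from -5.09 to -4.39. Over experimental batches, Ccl22 ranged from 57.01 to 125.6 CPM in 9 WT batches (median 94.7). In 4 AireKO batches Ccl22 ranged from 0.863 to 6.79 CPM (median 2.53). How many of all genes separate in this way over batches was not counted, and no batch held both genotypes. The share of cells with Ccl22 was 7.10% (95% interval 4.60 to 10.4, 24 cells) in AireKO and 33.1% in WT, at median depths of 812728 and 772240 reads. The cells that still held Ccl22 did so at a median of 16.6 CPM in AireKO and 36.6 CPM in WT.

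Aire transcripts were unevenly left in AireKO mTEChi, where 48.8% of the cells had at least 5 Aire reads. Ccl22 stood at 3.02 CPM in these and at 3.72 CPM in the others, and 9.70% and 4.62% of the cells held it. Ccr7 was held by 87.5% of the AireKO cells with Ccl22 and by 49.04% of those without.

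Xcl1, Ccl17 and Ccl20 were also low in the AireKO mTEChi pool but within the range of the WT pools. Xcl1 had 15 reads (0.0512 CPM) there, and 1 cell held it (0.296%), against 16 of 620 in WT. Over batches it stood between 0.033 and 0.094 CPM in AireKO and between 0 and 11.4 CPM in WT. Ccl17 stood at 1.14 CPM, against 0.375 to 12.3 CPM in the WT pools, and 6.80% of AireKO cells (95% interval 4.36 to 10.0) held it. Ccl20 stood at 11.4 CPM, against 1.502 to 76.8 CPM, and 8.88% of AireKO cells (6.07 to 12.4) held it, against 38.5% in WT. In WT pools 1 to 4 the shares were 41.7%, 8.33%, 32.9% and 31.7% for Ccl20. For Ccl17 they were 17.3%, 0%, 13.4% and 9.76%. The small pool 2, with 12 cells, was thus below the AireKO share for both genes. For Ccl20 the log2 difference was -1.89 (adjusted p = 0.951), and for Ccl17 it was -2.15 (adjusted p = 0.944, both edgeR).

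With experimental batches as units, edgeR called 3 of 7 genes lower in AireKO mTEChi, against 5.67% of all genes called. The log2 differences were -4.70 for Ccl22 (adjusted p = 0.000284), -5.90 for Xcl1 (adjusted p = 0.0229) and -2.20 for Ccl17 (adjusted p = 0.0490). No experimental batch held both genotypes, so batch and genotype cannot be told apart, and all AireKO mice were 5-week males.

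**Figure D4:**
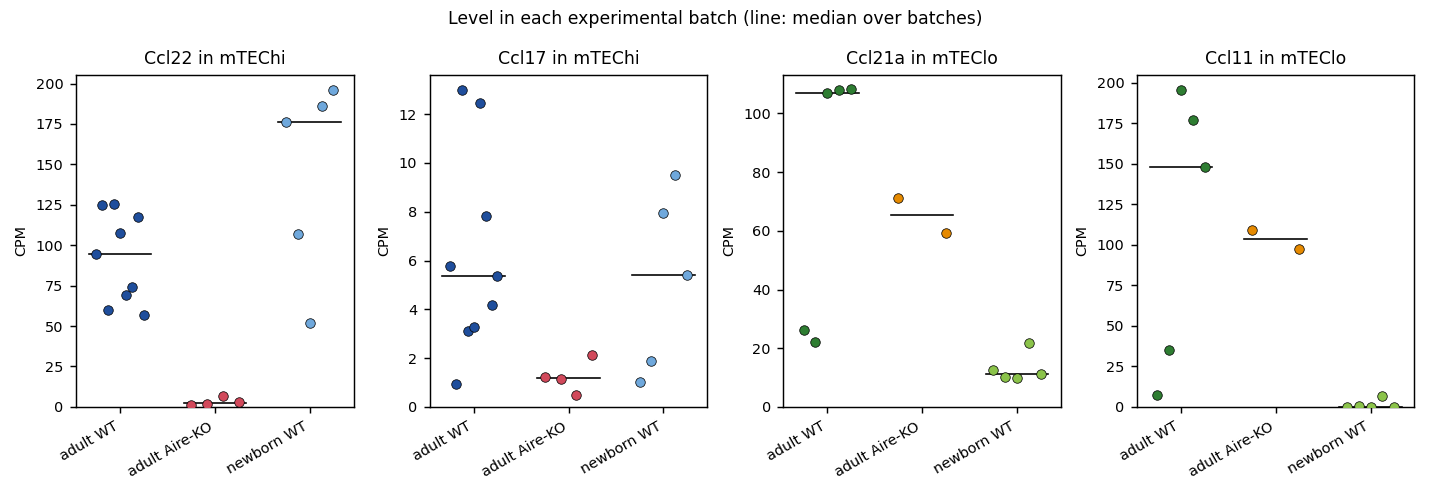
CPM of Ccl22 and Ccl17 in mTEChi and of Ccl21a and Ccl11 in mTEClo, with 1 point per experimental batch and a line at the median. Ccl22 lies between 0.863 and 6.79 CPM in AireKO mTEChi and between 57.01 and 125.6 CPM in adult WT mTEChi, and Ccl11 lies between 0 and 6.72 CPM in newborn mTEClo.

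Cxcl10 and Ccl21a showed no such drop in AireKO mTEChi, and for Ccl11 the interval was too wide to tell. Cxcl10 stood at 408.4 CPM (log2 difference 0.04, 95% interval -1.80 to 1.88) and was held by 86.7% of the cells. Ccl21a stood at 7.63 CPM, above all 4 WT pools (log2 difference 0.88, 95% interval -1.35 to 3.11). Ccl11 stood at 10.8 CPM, within the WT range (log2 difference -0.80, 95% interval -5.79 to 4.19). The intervals allow differences of several fold in either direction, and for Ccl11 a drop as large as that fitted for Ccl22.

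Across mTEChi cells, Cxcl10 and Aire varied together. Spearman's rho between their CPM was 0.52 over the 620 adult WT mTEChi cells, 0.31 to 0.62 in the 8 batches that could be asked, 0.24 over 170 newborn mTEChi cells (0.03 to 0.49 in 5 batches) and 0.42 over the 340 AireKO mTEChi cells, all read from the same libraries. It was 0.23 over adult WT mTEClo cells (-0.07 in pool 3), 0.14 over newborn mTEClo, 0.13 over adult cTEC and -0.005 over newborn cTEC. In AireKO mTEChi, Cxcl10 stood at 535.1 CPM in cells with at least 5 Aire reads and at 281.1 CPM in the others. The counting did not use strand, so reads of Cxcl10 and of Art3, which overlaps it, cannot be told apart where they share exon bases.

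In mTEClo, no gene was called between AireKO and WT by edgeR (0%), with 3.55% of genes and no member at an unadjusted p under 0.05, while DESeq2 called 0.680% and limma 0.0175% of genes, with no member. Of the 8 chemokine genes, 3 lay outside the range of the 3 WT pools, Ccl22 below and Ccl17 and Xcl1 above, against 39.5% of all genes. All 3 were low. Ccl22 stood at 0.316 CPM and Ccl17 at 0.218 CPM, and Xcl1 had 3 reads.

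Ccl21a stood at 64.8 CPM and Ccl11 at 102.8 CPM in AireKO mTEClo, each between the WT pools. Ccl21a was held by 70.1% of AireKO mTEClo cells (95% interval 62.2 to 77.2) and Ccl11 by 55.8% (47.6 to 63.8), against 66.4% and 46.8% in WT. Over the WT pools the shares ran from 27.03% to 91.2% for Ccl21a and from 6.06% to 69.6% for Ccl11. The log2 differences were 0.26 (95% interval -2.14 to 2.65) for Ccl21a and 0.42 (-4.32 to 5.16) for Ccl11. Over batches edgeR called 0.265% of all genes and no member.

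The difference between the AireKO effects in the sorts was tested as an interaction. For Ccl22 the effect in mTEChi was lower than in mTEClo by a log2 of -2.97 (95% interval -6.08 to 0.13, unadjusted p = 0.0585, edgeR). No gene was called by edgeR on pools (0%), with 3.44% of genes and no member at an unadjusted p under 0.05, and DESeq2 called 0.468% of genes and limma 0, with no member. Over batches 0.346% of all genes were called, again with no member.

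The third comparison set newborn against adult WT cells. In mTEChi no gene was called by edgeR on pools (0%), with 2.01% of genes and no member at an unadjusted p under 0.05, while DESeq2 called 35 genes and limma 0.318% of genes, with no member. Over batches 1.79% of all genes and no member were called. Of the 8 chemokine genes, 2 lay outside the adult range, Ccl21a above and Cxcl10 below, and 32.4% of all genes did. Ccl22 stood at 149.9 CPM, Ccl20 at 54.9 CPM, Ccl17 at 4.62 CPM and Xcl1 at 1.93 CPM, each within the range of the adult pools. Ccl22 was held by 42.1% of newborn mTEChi cells (95% interval 34.6 to 49.9) and by 33.1% of the adult ones. Ccl11 stood at 0.930 CPM in newborn mTEChi, against 0.453 to 63.6 CPM in the adult pools, and 3 cells held it.

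In mTEClo the newborn pool lay outside the range of the 3 adult WT pools for 6 of the 8 chemokine genes, but 53.1% of all genes did so. Ccl21a (13.6 CPM), Ccl20 (8.44 CPM) and Ccl11 (1.77 CPM) lay below the adult pools, and Cxcl10 (219.8 CPM), Ccl22 (4.42 CPM) and Ccl17 (0.337 CPM) above. Ccl21a was held by 16.9% of the newborn cells (95% interval 10.8 to 24.7) and Ccl11 by 1.61% (0.196 to 5.70), against 66.4% and 46.8% in adults. The adult shares varied by pool. In adult pools 1 to 3, Ccl21a was held by 91.2%, 27.03% and 28.8% of cells. Ccl11 was held by 69.6%, 16.2% and 6.06% (95% interval 1.68 to 14.8 in pool 3, which overlaps the newborn interval). In the cells that held it, Ccl21a had a median of 70.3 CPM in newborn and 119.2 CPM in adult mTEClo. Cxcl10 was held by 82.3% of newborn and 52.7% of adult mTEClo cells, with 71.4%, 24.3% and 22.7% in adult pools 1 to 3.

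By edgeR on pools no gene was called (0%), with 9.93% of genes and no member at an unadjusted p under 0.05, while DESeq2 called 4.59% of genes and limma 91 genes, with no member. The log2 differences were -5.53 for Ccl11 (adjusted p = 0.595), -2.10 for Ccl21a (adjusted p = 0.615) and 1.67 for Cxcl10 (adjusted p = 0.524). With experimental batches as units, edgeR called 3 members, Ccl11 (log2 difference -6.42, adjusted p = 0.00317), Ccl21a (-2.68, adjusted p = 0.000402) and Cxcl10 (1.18, adjusted p = 0.0156), against 16% of all genes. Newborn mTEClo also held Psmb11 at 283.7 CPM and fewer tuft marker cells (16.9%) than the 38.7% of adult WT mTEClo, and their part in these differences was not tested. No batch held cells of both ages, so batch and age cannot be told apart.

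The age effects in the sorts differed by a log2 of 2.80 for Ccl21a (95% interval -0.71 to 6.30) and of -2.17 for Cxcl10 (-4.88 to 0.55), mTEChi minus mTEClo. edgeR on pools called no gene (0%), with 3.81% of genes and no member at an unadjusted p under 0.05, while DESeq2 called 0.628% of genes and limma 44 genes, with no member. Over batches, where 5.33% of all genes were called, Ccl21a was the 1 member called (log2 difference 3.06, adjusted p = 0.00442).

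**Figure D5:**
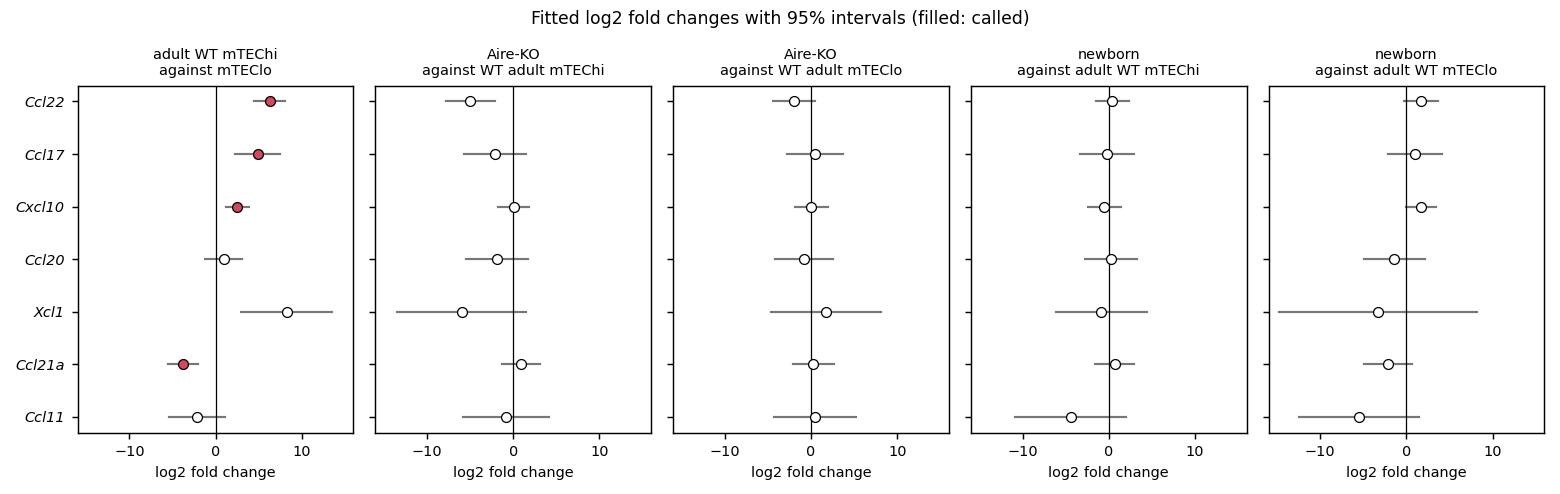
Log2 differences of the chemokine genes in the 5 comparisons on pools, with 95% intervals from edgeR as bars and filled points for called genes. The values of Xcl1 depend on the prior count, since its mTEClo pools hold 0 or 1 read in WT. Ccl22, Ccl17 and Cxcl10 lie to the mTEChi side and Ccl21a to the mTEClo side in adult WT, and the intervals of the AireKO and newborn comparisons, which rest on 1 pool, are wide.

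The newborn sorts shared 5 experimental batches, so they could be compared within a batch. Ccl22 and Ccl17 were higher in mTEChi than in mTEClo in 5 of 5 batches, and Ccl20 and Cxcl10 in 4 of 5. Xcl1 had no read in newborn mTEClo and 1 to 120 reads in the mTEChi batches, so no order is given for it. Ccl21a was lower in mTEChi than in mTEClo in 5 of 5 batches, at 3.50 to 11.1 CPM against 9.74 to 21.7 CPM, but in 2 of the batches the levels were close (10.11 against 10.33 and 11.10 against 11.29 CPM). The share of cells with Ccl21a was not lower, at 21.6% of newborn mTEChi (95% interval 15.7 to 28.6) and 16.9% of newborn mTEClo. Cxcl10 was higher in newborn cTEC (241.04 to 377.3 CPM) than in newborn mTEClo (157.9 to 271.2 CPM) in 5 of 5 batches. How many of all genes keep the same order in 5 of 5 batches was not counted, so these counts have no background. The batches come from the same newborn pool, so no test was made.

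cTEC had 1 pool at each age and were described only. Adult cTEC held Ccl20 at 71.2 CPM and Ccl21a at 24.4 CPM, and Ccl22 with 2 reads. Ccl20 was held by 18.2% of these cells (95% interval 10.3 to 28.6), and 50% of its reads came from 3 cells. Newborn cTEC held Cxcl10 at 306.1 CPM in 97.1% of cells (95% interval 92.8 to 99.2), against 61.5 CPM in 46.8% (35.3 to 58.5) of adult cTEC. Ccl22 stood at 17.2 CPM in newborn cTEC, but 75.4% of its reads came from 1 cell. Likewise 79.6% of the Ccl20 reads of newborn cTEC came from 1 cell.

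The other genes of the chemokine system were counted in lists, to be read against the 7.54% of all genes called higher and the 4.13% called lower in mTEChi. Of 29 other chemokine ligands tested, 9 were higher and 1 lower in adult WT mTEChi than in mTEClo, and 19 were not called (median log2 fold change 2.25, against 0.30 over all genes). Those higher included Ccl1 (6.60), Pf4 (4.67), Cxcl13 (4.25), a B cell attractant, and Ccl5 (3.57), and the one lower was Cxcl12 (-3.65), the ligand of CXCR4, which fell from 63.5 to 6.18 CPM. Of 23 receptors 11 were higher and 1 lower (median 3.30). These included receptors of the ligands above: Ccr6 averaged 38.6 CPM in mTEChi and 0.304 CPM in mTEClo (log2 fold change 6.69), and Ccr4 163.1 and 4.81 CPM (4.92). Cxcr5 (4.95) and the scavenging receptor Ackr2 (4.87) were higher as well, while Ackr4, which takes up CCL21 and CCL19, was lower (-3.79, 5.92 against 74.4 CPM). All values in brackets are log2 fold changes with adjusted p from 0.00102 to 0.0443 (edgeR).

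Of 11 genes of TNF receptor family and NF-kB signalling, which drive mTEC maturation, 5 were higher in mTEChi and none lower (median 0.51), among them Cd40 (log2 fold change 3.76), Relb (1.62), Nfkb2 (1.56) and Traf6 (1.26). Of 14 interferon response genes, 2 were higher, the CXCR3 ligands Cxcl11 (2.82) and Cxcl9 (2.33), and 3 were lower, Irf7 (-1.80), Stat2 (-1.69) and Irf9 (-1.42), with a median of -0.50. The other 9 genes of this list were not called. No gene of the 4 lists was called by edgeR on pools in the AireKO and newborn comparisons. Between AireKO and WT mTEChi, where 4.37% of all genes had an unadjusted p under 0.05, 6 of the 29 other ligands, 0 of 23 receptors, 1 of 11 NF-kB genes and 2 of 14 interferon response genes did.

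The genes most like each member over cells were sought in the group where the member was highest among groups of at least 100 cells, which leaves out adult cTEC. Ccl21a was most like Tpm2 (rho 0.74), Krt17 (0.74) and Fcgbp (0.72) over 150 AireKO mTEClo cells, and Ccl11 like Col6a1 (0.71), Fcgbp (0.68) and Col6a2 (0.65) over the same cells. Ccl22 was most like Ncf1 (0.39), Lsp1 (0.38) and Zfand6 (0.35) over 170 newborn mTEChi cells, and Ccl20 like Ccl9 (0.38), AA467197 (0.38) and Car4 (0.37) over the same cells. Ccl17 was most like Cx3cl1 (0.31) over 620 adult WT mTEChi cells, where Cxcl10 was most like Aire (0.52), Art3 (0.51) and Calcb (0.50). For Xcl1 no gene reached a rho of 0.3. The values are Spearman's rho, and the cells share pools and batches. Over the 13 pools, where the sorts form separate clusters, Pearson's r of log2(CPM + 1) was highest for Ccl22 with Mpo (0.96) and Gpx6 (0.95), for Ccl17 with A2m (0.97), for Xcl1 with Ereg (0.90), for Ccl20 with Ccl9 (0.95), for Ccl11 with Armc1 (0.91), for Cxcl10 with Timp3 (0.95) and for Ccl21a with Fbxo32 (0.96).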

How the data were processed

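Per the labels and the methods, single sorted cells were sequenced by RamDA-seq, and the authors trimmed the reads (fastp 0.20.0), mapped them to mm10 with STAR 2.7.3a, removed reads with a mapping quality under 5 and duplicates (Picard 2.21.1), and deposited raw read counts per Ensembl gene from htseq-count 0.11.2, counted without strand, for cells with over 200000 reads. How 2 runs of 1 cell were combined is not given in the sources used here.

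Counts were summed over the cells of a pool, and 11 mTEC pools were fitted together by edgeR 4.0.16's quasi-likelihood test (TMM, filterByExpr, Benjamini-Hochberg adjustment). The alternatives were DESeq2 1.42.0 and limma 3.58.1 (R 4.3.3), where the limma fits gave equal weight to each cell of a pool. The script was tested on simulated data. P-values over pools measure the spread between pools, which differ in age and sex, and those over experimental batches may measure technical spread, since how batches relate to mice is not given in the sources used here. The 8 genes and all gene lists were chosen with earlier results of these data known. All 8 genes were named by rule, as were the list genes with the largest called changes and a group mean of at least 5 CPM, and the 3 genes most like each member. The authors' scaled expression table was not used.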

Additional observations from a re-analysis of the deposited data

Results flagged for a closer look

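Ccl19 stood at 0.125 CPM in adult WT mTEChi pool 2, set apart from the other 3 pools of its group by a gap that passed Dixon's 95% critical value. The value is 1 read in 12 cells, under the floor of 3 reads. About 1 in 20 groups passes this value by chance.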

How the results depend on the processing

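Between adult WT mTEChi and mTEClo, 4 chemokine genes were called, and 2 without the tuft marker cells (Ccl22 and Ccl21a), 2 with age and sex of the pool as a replicate block (Ccl22 and Cxcl10) and 1 to 5 when a pool was left out. The fewest, Ccl22 alone, were called without mTEChi pool 4, and 2, Ccl22 and Ccl21a, without mTEChi pool 1 or mTEClo pool 2. Pools are paired only by age and sex, and the block left 1 residual degree of freedom. Ccl22 was called in every alternative run. For AireKO against WT mTEChi the count was 0 on pools, 3 on experimental batches and 1 with DESeq2, for newborn against adult mTEClo 0 and 3, and for the age interaction 0 and 1. The causes were not tested.

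Values of genes that did not pass the test turned sign in these fits, given as log2 differences. For mTEChi against mTEClo, Ccl20 was -1.41 without tuft marker cells and -0.99 with the block, and Ccl11 was 0.86 with the block. For AireKO against WT mTEChi, Ccl11 was 0.57 with limma and ran from -1.22 to 0.89 when a pool was left out, and Cxcl10 was -0.096 without tuft marker cells. For AireKO against WT mTEClo, batches gave -0.26 for Ccl21a, -0.20 for Ccl11 and -0.41 for Cxcl10. Cells thinned to 200000 reads gave -0.71 for Ccl17 and -2.13 for Xcl1, and Cxcl10 was -0.62 without tuft marker cells and -0.13 without Ptprc cells. Leaving out a pool gave -0.13 to 1.51 for Ccl21a, -0.12 to 2.36 for Ccl11 and -0.39 to 0.98 for Cxcl10. For newborn against adult mTEChi, limma gave 0.29 for Ccl17 and 0.38 for Xcl1, and batches -0.36 for Ccl20. Leaving out a pool gave -0.64 to 0.48 for Ccl17, -0.15 to 0.66 for Ccl20 and -1.30 to 0.59 for Xcl1.

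Xcl1 and Ccl17 rest on few reads in mTEClo, and 6 of the 8 groups had 1 pool.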
